A study of Mus musculus with 16 samples.

Results

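Cortex of mice labelled Neil1 knockout was compared with cortex of wild-type littermates 20 h after whole-body gamma irradiation. The comparison rests on 8 of the 16 arrays of the series, 4 labelled knockout and 4 wild type, chosen by their sample titles alone. Irradiated mice of both genotypes received 6 Gy at 0.74 Gy/min. The 8 sham samples, 4 of each genotype, came from mice that were not irradiated and were used as a further look at genotype. The mice were males on a backcrossed C57BL/6 background, and every sample is labelled with an age of 28 to 42 weeks. Mice also received the thymidine analogue BrdU at 100 mg/kg into the peritoneum before exposure and again 2 h after it, and the labels do not say whether sham mice differed in this. The knockout mice carry the Neil1-/- genotype in all tissues, as far as the labels say. The labels give neither the deleted part of the gene nor the number of backcross generations.

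NEIL1 is a DNA glycosylase, an enzyme of base excision repair. It recognises oxidised bases such as thymine glycol and ring-opened purines, which ionising radiation and normal oxidative metabolism both produce, cuts them out and nicks the strand. A polymerase and a ligase with its scaffold XRCC1 then fill and seal the gap. Ionising radiation also breaks both strands, and ATM is the kinase that signals such breaks to p53 and to the repair machinery. In brain, NEIL1 is known for a role in neurons and in recovery from oxidative damage. The comparison addresses which transcripts differ with the Neil1 genotype in irradiated cortex.

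Each sample was hybridised to its own 1-colour array, and 17436 genes were tested. The labels do not state that each sample is a separate mouse, so p-values measure the spread between these samples, which may be technical. A level is the log2 signal of a gene's brightest probe minus the 75th percentile of log2 signal on its array, so 0 is the level of a fairly bright probe. All wild-type arrays, sham and irradiated, were on slide 1 and all labelled knockout arrays on slide 2, each slide scanned in a run of its own. Genotype, slide and scan therefore cannot be told apart in any value below. The labelled knockout arrays were also dimmer after irradiation: the 75th percentile of signal was 1333 ± 301 intensity units (SD, n = 4) against 2301 ± 235 in wild type, a 1.73-fold gap with no overlap (exact permutation test, two-sided, p = 0.0286, the smallest p that 4 against 4 can give). In sham mice the 75th percentile was lower in labelled knockout too, at 1778 ± 343 against 2415 ± 274 (SD, n = 4), though these arrays overlapped. The share of probes well above background after irradiation was 65.5% ± 3.42 against 67.3% ± 0.754 (exact permutation test, two-sided, p = 0.4). The part of brightness in the gene results was not tested further than by the alternatives named with them.

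The Neil1 probe gave more signal, not less, in the mice labelled knockout. Its levels after irradiation were -2.19, -2.56, -2.15 and -2.55 on the labelled knockout arrays. On the wild-type arrays they were -3.39, -3.61, -4.32 and -3.69. All 4 labelled knockout arrays lay above all 4 wild-type arrays, by 1.39 ± 0.19 (log2, SE), or 2.62-fold (limma, adjusted p = 0.00725 over all genes). The same held in the sham mice, at 1.27 ± 0.19 (limma, adjusted p = 0.0246). Quantile normalization gave 1.21 after irradiation (limma, adjusted p = 0.00718). Because the files do not place the probe relative to the deletion, it says nothing on whether those labels are right. Every direction given here rests on those labels, and the groups are called labelled knockout and wild type. Without the 2 dimmest arrays, both labelled knockout, the Neil1 difference was 1.38 with an adjusted p of 0.0819, and with brightness as a covariate it was 1.75 with an adjusted p of 0.165 (limma for both).

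After irradiation, 205 of 17436 genes (1.18%) passed an adjusted p of 0.05 between the genotypes (limma with Benjamini-Hochberg adjustment), and 2901 (16.6%) had an unadjusted p under 0.05. Of these, 143 (0.82%) were higher and 62 (0.356%) lower in the labelled knockout mice, and 51 differed at least 2-fold. With quantile normalization 89 genes (0.51%) passed, 37 higher and 52 lower, and 77 genes were called under both scalings, 37.6% of the first list and 86.5% of the second. The share of calls in the higher direction was 69.8% with 75th percentile scaling and 41.6% with quantile normalization, so the balance of directions depended on the scaling. The median over all genes was -0.03 with the first and -0.08 with the second. By the simple criterion that the arrays of the genotypes did not overlap, 1523 genes (8.73%) separated, 749 higher (4.3%) and 774 lower (4.44%), beside 840 (4.82%) in sham.

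The number of calls moved with single arrays. Leaving out 1 labelled knockout array gave 110, 32, 37 and 30 calls for replicates 1 to 4, and leaving out 1 wild-type array gave 469, 31, 17 and 63. Only 17 genes kept their call in all 8 of these fits. Among them were Neil1, Commd4, Ppcdc, Rpp25, Cd276, Nrg4, Atm and Bco2, all within 20 Mb of Neil1, with Clasp2, Bicdl1, Gm15850, Gm20594, Gm8363, Nanog, Pik3ap1 and Xntrpc elsewhere. Without the 2 dimmest arrays 4 genes were called, Nrg4, Cd276, Bco2 and Sh2d7, and with array brightness as a covariate none was (limma, 0 genes, with 3666 at an unadjusted p under 0.05).

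Calls made up a larger share of the genes around Neil1 on chromosome 9 than of the genes elsewhere. Within 20 Mb of Neil1, 21 of 380 tested genes were called (5.53%), 7 higher and 14 lower, against 184 of 17056 elsewhere (1.08%). On the rest of chromosome 9 the count was 8 of 595 genes (1.34%). The 14 that fell were Nrg4, Cd276, Bco2, Rpp25, Pts, Atm, Man2c1os, Alg9, Bud13, Dnaja4, Mindy2, Commd4, Nxpe4 and Bbs4. The 7 that rose were Neil1, 1700072B07Rik, Sh2d7, Ppcdc, Gm38444, Rpl4 and Thy1.

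**Figure D1:**
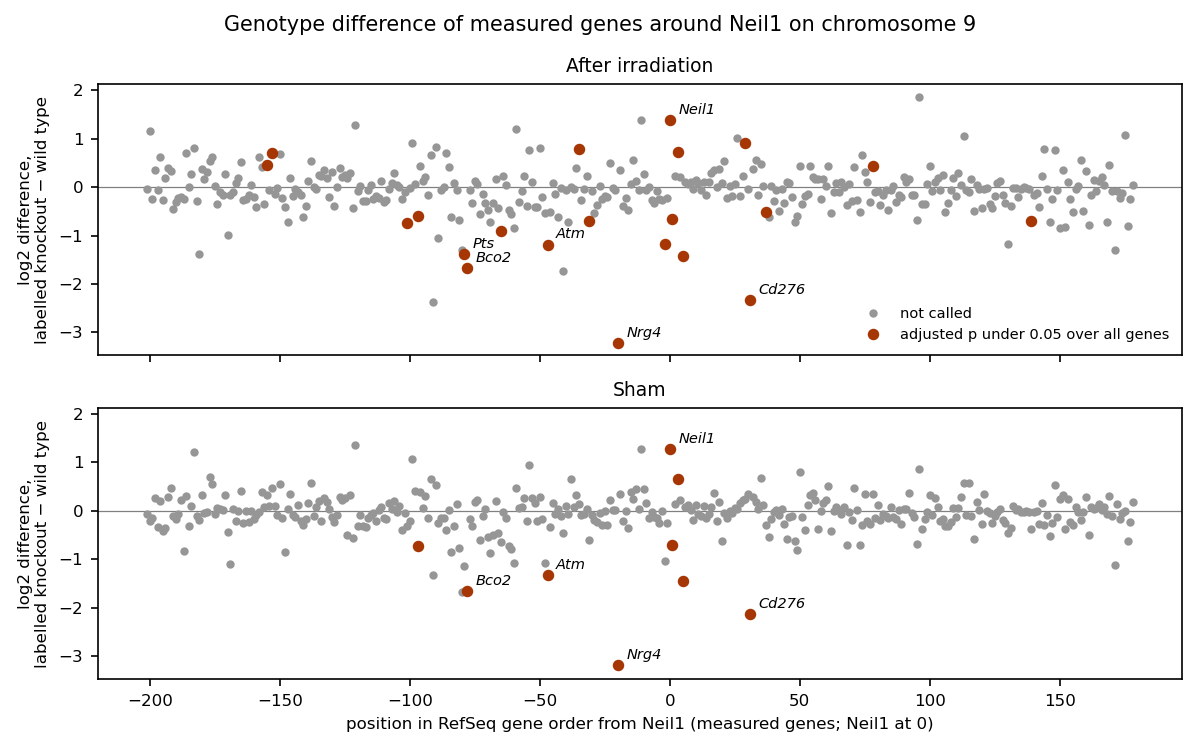
Genotype difference (labelled knockout minus wild type, log2) of each measured gene around Neil1 on chromosome 9, in RefSeq gene order with Neil1 at 0, after irradiation (top) and in sham mice (bottom); filled large points passed an adjusted p of 0.05 over all genes. Cd276 lies at -2.33 after irradiation; the point of Nrg4 is a fitted value for a gene that no labelled knockout irradiated array measured above background, so its depth is not measured.

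Cd276 encodes an immune checkpoint ligand of the B7 family. Its levels after irradiation were -3.99, -3.36, -4.45 and -3.70 in labelled knockout cortex. In wild-type cortex they were -1.94, -1.55, -1.27 and -1.41. The highest labelled knockout array was below the lowest wild-type array by more than the spread within either group. Cd276 fell by 2.33 ± 0.21 (log2, SE), a 5.04-fold difference (limma, adjusted p = 0.000265), and by 2.13 in sham mice.

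Bco2 encodes a mitochondrial enzyme that cleaves carotenoids. It read -4.06, -3.92, -4.02 and -3.96 on the labelled knockout arrays and -2.26, -2.38, -2.27 and -2.35 on the wild-type arrays. Replicates were tight and the genotypes did not overlap. Bco2 fell by 1.67 ± 0.16 (3.19-fold, limma, adjusted p = 0.000265), and by 1.66 in sham mice. Cd276 and Bco2 were called in 25 of 26 alternatives; with brightness as a covariate their adjusted p was 0.0533.

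Nrg4, a neuregulin that signals through the receptor ErbB4, was well above background on all 4 wild-type irradiated arrays and on no labelled knockout one. The probe filter favours such a gap. Its wild-type levels were -5.00, -5.17, -4.95 and -4.58. The labelled knockout readings were -8.86, -6.94, -8.45 and -8.33, all lower. Counting the dim side at the array's detection limit, Nrg4 was at least 2.60-fold lower (limma, adjusted p = 0.000597). Its other kept probes gave -1.98 and -1.72. The call was lost with normexp background correction.

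Rpp25, a protein subunit of the RNA-processing enzymes RNase P and RNase MRP, lies a few genes from Neil1. It read -0.52, -1.15, -0.56 and -0.72 in labelled knockout and 0.96, 0.93, 0.40 and 0.41 in wild-type cortex. No labelled knockout array reached the lowest wild-type level. Rpp25 fell by 1.41 ± 0.19 (2.66-fold, limma, adjusted p = 0.00717), and by 1.45 in sham mice. Pts, an enzyme of tetrahydrobiopterin synthesis, fell by 1.38 ± 0.21 (2.61-fold, limma, adjusted p = 0.0101). Without wild-type replicate 3 the call of Pts was lost, as was that of Man2c1os, which lies beside Man2c1 and differed by -1.17 ± 0.19 in the full fit.

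Commd4, the next measured gene beside Neil1, encodes a COMM domain protein of a complex that sorts membrane cargo. Its readings were 1.49, 1.53, 1.32 and 1.54 in labelled knockout and 1.95, 2.13, 2.15 and 2.24 in wild-type cortex. It fell by 0.65 ± 0.09 (limma, adjusted p = 0.00725), and its other kept probe gave -0.70. Ppcdc, a decarboxylase of coenzyme A synthesis, moved the other way, with 0.76, 0.70, 0.63 and 0.83 in labelled knockout against -0.22, -0.04, 0.11 and 0.12 in wild type. Ppcdc rose by 0.73 ± 0.10 (limma, adjusted p = 0.00471). Direction was therefore mixed among the nearest neighbours of Neil1. Man2c1, Cox5a and Sin3a, named after their values were seen, did not pass in the same stretch, at -0.23 ± 0.14, 0.10 ± 0.12 and -0.27 ± 0.09.

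**Figure D2:**
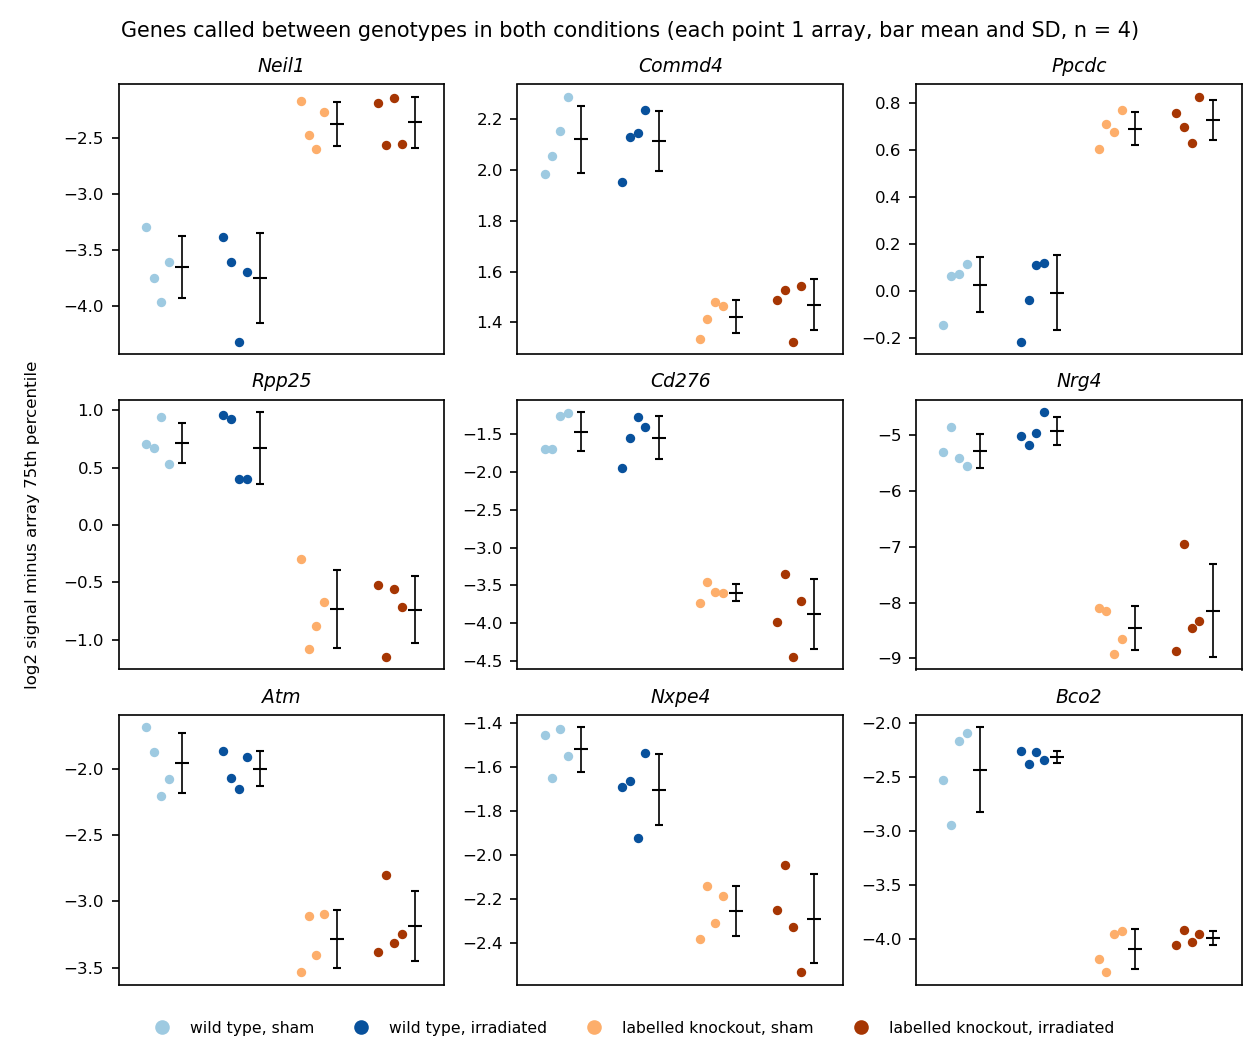
Levels (log2 signal minus the array's 75th percentile) of the 9 genes called between the genotypes both after irradiation and in sham, one point per array, with mean and SD (n = 4 per group); colours give genotype and treatment. In each panel the labelled knockout and wild-type arrays separate in both treatments, and the irradiated and sham arrays of a genotype lie together.

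Atm, the kinase that signals DNA double-strand breaks, was among the genes that fell. Its levels after irradiation were -3.39, -2.80, -3.31 and -3.25 in labelled knockout cortex. Wild-type cortex gave -1.87, -2.07, -2.15 and -1.91. The genotypes were apart by more than their spread, and Atm was 2.28-fold lower (-1.19 ± 0.15, limma, adjusted p = 0.00463). The second kept Atm probe was also lower, and the sham difference was -1.33 ± 0.15 (limma, adjusted p = 0.00184). Without the 2 dimmest arrays the Atm difference was -1.10 with an adjusted p of 0.0819 (limma).

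Npat, a coactivator of histone gene transcription, starts beside Atm and is transcribed away from it, and it was examined for that reason after values were seen. Its levels were -1.83, -1.74, -2.03 and -1.67 in labelled knockout and -1.53, -1.32, -1.08 and -1.33 in wild-type cortex. The arrays did not overlap, but the difference of -0.50 ± 0.12 missed the threshold (limma, adjusted p = 0.057), and with quantile normalization it was -0.60 (limma, adjusted p = 0.0491). The 250 bases upstream of each gene's start are printed because the pair reads outward from them. They come from RefSeq, build GRCm38.p6, 5′ to 3′ on each gene's own strand, and the capitals mark the 125 bases that both windows hold as reverse complements. The Atm window is chr9:53536672-53536921 on the minus strand and the Npat window chr9:53536797-53537046 on the plus strand.
Atm: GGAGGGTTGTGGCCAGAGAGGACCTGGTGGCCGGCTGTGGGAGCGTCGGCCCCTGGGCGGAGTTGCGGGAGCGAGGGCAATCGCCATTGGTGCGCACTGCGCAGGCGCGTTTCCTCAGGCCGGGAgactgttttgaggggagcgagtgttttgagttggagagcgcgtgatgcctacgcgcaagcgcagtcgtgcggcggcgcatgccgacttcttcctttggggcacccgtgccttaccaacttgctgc
Npat: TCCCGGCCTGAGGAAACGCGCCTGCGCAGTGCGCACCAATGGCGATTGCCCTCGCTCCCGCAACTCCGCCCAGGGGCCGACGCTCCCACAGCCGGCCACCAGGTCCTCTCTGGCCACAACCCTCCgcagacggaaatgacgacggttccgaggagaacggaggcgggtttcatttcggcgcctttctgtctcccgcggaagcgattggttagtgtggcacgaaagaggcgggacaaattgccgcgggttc
The letters TGCGCA, part of the motif of the transcription factor NRF1 and their own reverse complement, were searched in both windows. They occur 2 times in each, both times inside the shared bases, and 2113 of 32841 RefSeq windows of the same length and build (6.43%) hold them at least once.

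Away from Neil1, 136 genes rose and 48 fell. The mean level of the 136 genes was -0.46, -0.27, -0.32 and -0.26 on the labelled knockout irradiated arrays and -1.10, -1.23, -1.40 and -1.15 on the wild-type irradiated arrays. These arrays chose the genes, so that gap is a description. The sham arrays entered the choice only through the probe filter, the pick of the brightest probe and the estimate of spread. On them the same genes averaged -0.93, -0.83, -0.62 and -0.57 in labelled knockout and -1.20, -1.19, -1.34 and -0.98 in wild-type cortex. The labelled knockout sham arrays lay above all wild-type sham arrays and below all labelled knockout irradiated arrays.

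The increases made up a larger share of the genes at both ends of the signal range than of those between. Of the 143 genes that rose, 53 had a wild-type level below -4, at the dim end (of 3314 tested). Another 39 had a level above 4, among the brightest on the array (of 1147). Between -4 and 0 there were 40 (of 5661), and between 0 and 4 there were 11 (of 7314). Not well above background on every wild-type irradiated array were 23 of the 143. With quantile normalization 8 of those 53 and 3 of those 39 were also called higher. Over all 3314 genes below -4 the median difference was 0.14 with 75th percentile scaling and -0.17 with quantile normalization. The bright group held calmodulins and housekeeping genes, named after their values were seen. Actb, cytoplasmic actin, differed by 0.43 ± 0.10 (limma, adjusted p = 0.0466) but by -0.00 with quantile normalization. Calm2 gave 0.48 ± 0.09 (limma, adjusted p = 0.0249) and 0.01. For Calm3 the values were 0.47 ± 0.08 (limma, adjusted p = 0.0193) and 0.38 (limma, adjusted p = 0.0414), so it kept its call under both scalings.

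Several of the largest increases were RNAs that are not messenger RNAs. Rn28s1, the 28S ribosomal RNA, read 6.42, 6.91, 7.26 and 7.36 in labelled knockout cortex. In wild-type cortex it read 4.53, 4.93, 4.16 and 4.78. Each labelled knockout array was above each wild-type array, and the gene rose by 2.39 ± 0.40 (5.23-fold, limma, adjusted p = 0.0186). In sham mice the difference was 1.66 ± 0.40 (limma, adjusted p = 0.295). The small nucleolar RNAs Snord17 and Snora34, guides of RNA modification, rose by 1.47 ± 0.29 and 1.40 ± 0.24. The spliceosomal Rnu2-10 rose by 1.46 ± 0.32, and Rn7sk, the RNA that holds the elongation factor P-TEFb inactive, by 1.23 ± 0.25. This class was put together after values were seen. Of its 22 small nucleolar, small nuclear and ribosomal RNA genes, 5 were called higher and 0 lower, beside 0.82% and 0.356% of all genes. At an unadjusted p under 0.05 there were 15 (limma, 68.2%, beside 16.6% of all genes). Above 0 were 20, with a median of 0.83 (0.62 with quantile normalization, 0.66 in sham) beside -0.03 over all genes. Fits without labelled knockout replicates 2, 3 or 4 or wild-type replicate 3 each lost the calls of all 5 named here.

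Clustered histone genes, which lack a poly(A) tail, showed 1 call among 45, beside 1.18% of all genes. At an unadjusted p under 0.05 there were 18 (limma, 40%, beside 16.6% of all genes), 16 higher and 2 lower. H4c3, a histone H4 gene, read -1.95, -1.69, -1.49 and -1.46 in labelled knockout against -2.73, -2.88, -3.13 and -2.79 in wild type, an increase of 1.23 ± 0.22 (limma, adjusted p = 0.0198). The genotypes did not overlap for 13 of the 45 genes that were higher and 1 that was lower, beside 4.3% and 4.44% of all genes. This list too was put together after values were seen. The list's median was 0.22 with 75th percentile scaling, with 28 of 45 above 0, and -0.00 with quantile normalization, so the lean of the median depended on the scaling. In sham cortex 37 of 45 were above 0, with a median of 0.27 by 75th percentile scaling.

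Among messenger RNAs the largest increases were mostly dim. Cd247, the zeta chain of the T cell receptor, was the exception in brightness, at -0.04, 0.36, 0.50 and 0.73 in labelled knockout. Wild-type arrays gave -1.42, -1.80, -2.42 and -1.61. The arrays did not overlap and Cd247 rose by 2.20 ± 0.33 (4.60-fold, limma, adjusted p = 0.00994), with 1.78 ± 0.33 in sham (limma, adjusted p = 0.103). The call of Cd247 was lost without wild-type replicate 3. None of the 10 tested lymphocyte markers was called, and 2 had an unadjusted p under 0.05 (limma, 20%, beside 16.6% of all genes).

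Hjurp, the chaperone that loads the centromeric histone, rose by 1.48 ± 0.27 (2.78-fold, limma, adjusted p = 0.023), from -6.29 to -5.90 in wild type to -5.29 to -4.27 in labelled knockout. Gjd3, a gap junction connexin, rose by 1.94 ± 0.41 (limma, adjusted p = 0.0357), and with quantile normalization by 1.66 (limma, adjusted p = 0.0804). Gm19897, 4932412D23Rik and the rhomboid protease Rhbdl2 rose by 1.88 ± 0.35, 1.53 ± 0.28 and 1.44 ± 0.29. Gm19897 and Rhbdl2 were near the detection limit, well above background on 2 and 1 of the wild-type irradiated arrays. The probe of 4932412D23Rik was well above background on all 4 irradiated arrays of each genotype. The odorant receptor Olfr62 and the epithelial keratin Krt7 were above background on all 4 labelled knockout irradiated arrays and on no wild-type irradiated array. The probe filter favours such a gap, since 4 arrays of 1 group are enough to pass it. Olfr62 was at least 1.91-fold higher (limma, adjusted p = 0.0282) and Krt7 at least 2.23-fold higher (limma, adjusted p = 0.0414). Each of these 7 lost its call without labelled knockout replicates 2 or 4 or wild-type replicates 2 or 3.

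**Figure D3:**
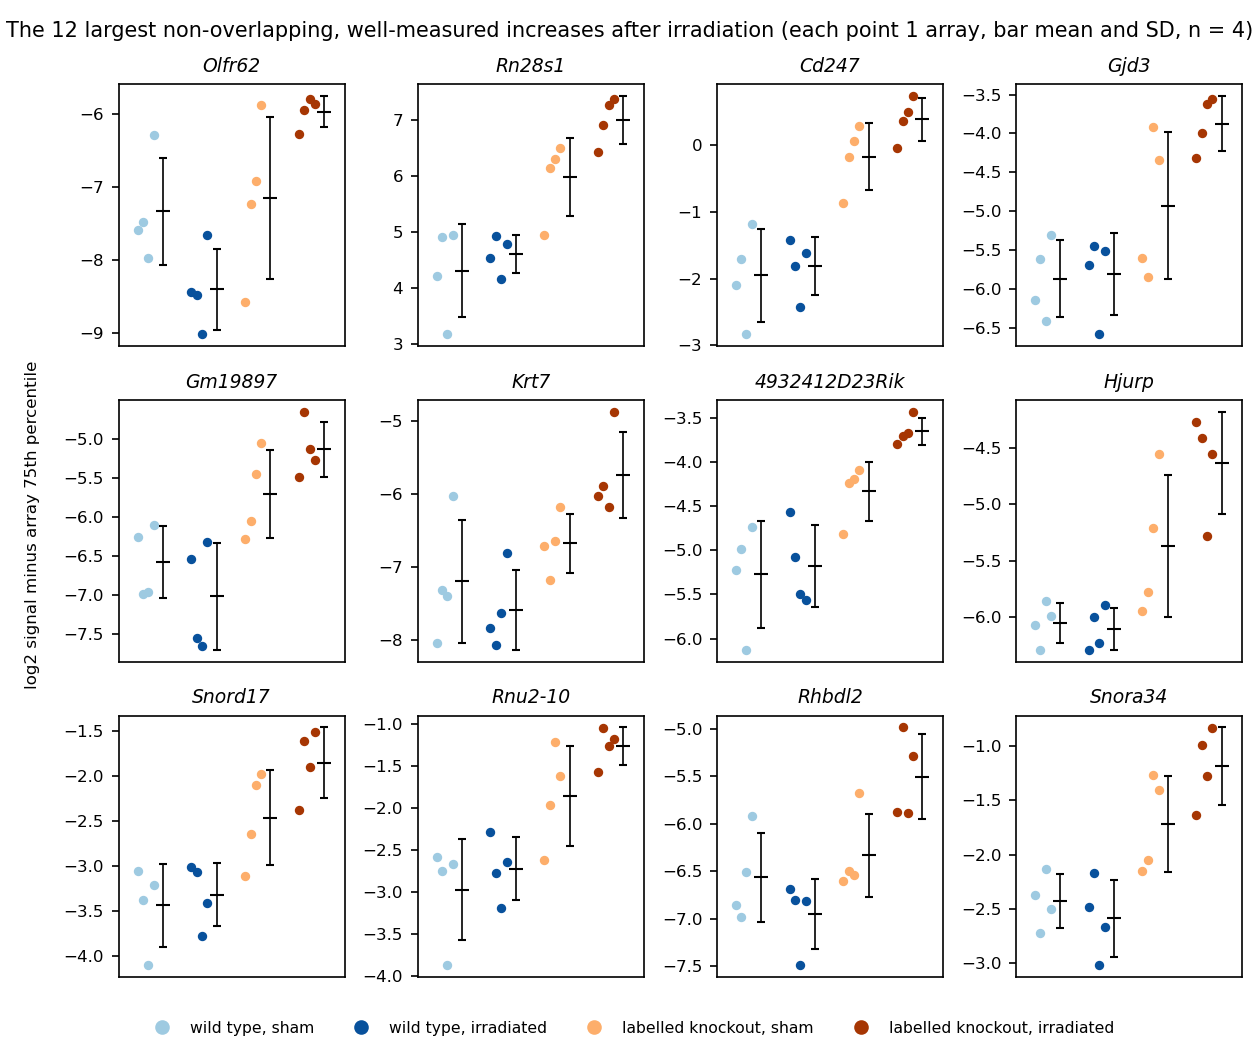
Levels (log2 signal minus the array's 75th percentile) of the 12 largest called increases after irradiation among genes whose genotypes did not overlap and whose labelled knockout arrays were all well above background, one point per array, with mean and SD (n = 4 per group). The gap between the irradiated groups is fixed by that choice and is a description. The sham difference did not enter the choice, though the sham arrays entered the probe filter and the estimate of spread. The sham arrays of the genotypes do not overlap for Cd247, touch for Rn28s1 (lowest labelled knockout 4.95, highest wild type 4.95) and overlap in the other panels.

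Fewer genes away from Neil1 fell by a large amount. Ttc26, a component of ciliary transport, fell by 0.95 ± 0.18 (limma, adjusted p = 0.0238) on one probe and read 0.86 on its other. Rundc3b, a RUN domain protein, fell by 0.85 ± 0.14 (limma, adjusted p = 0.0152). Aspn, an extracellular matrix proteoglycan, was above background on all wild-type and no labelled knockout irradiated arrays, a gap that the probe filter favours. It was at least 1.52-fold lower (limma, adjusted p = 0.0282). Its direction turned with normexp background correction, to 0.38, and it kept its call in 15 of 25 alternatives. Of the 68 called genes with several kept probes, 45 had all probes on the same side of 0.

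A few other called genes are given singly, named after their values were seen. Foxo3, a stress-responsive transcription factor, rose by 1.18 ± 0.21 (limma, adjusted p = 0.023), and its other kept probe gave 1.20. Cntfr, the receptor subunit for ciliary neurotrophic factor, rose by 1.13 ± 0.20 (limma, adjusted p = 0.0193). Kcnab2, a potassium channel subunit, rose by 1.04 ± 0.17 (limma, adjusted p = 0.0186), with 0.74 on its other probe. Clasp2, which stabilises microtubule ends, rose by 0.67 ± 0.10 (limma, adjusted p = 0.00725), but its other probes ran from -0.46 to 1.01. The calls of Foxo3 and Kcnab2 were lost without labelled knockout replicates 2 or 4 or wild-type replicate 3, that of Foxo3 also without wild-type replicate 4, and that of Cntfr without labelled knockout replicates 3 or 4 or wild-type replicates 2, 3 or 4.

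The sham mice showed how much of the genotype difference was present without radiation. In sham cortex 9 of 17436 genes were called (0.0516%), 2 higher (0.0115%) and 7 lower (0.0401%). All 9 lie within 20 Mb of Neil1 and all 9 were also called after irradiation: Neil1, Commd4, Ppcdc, Rpp25, Cd276, Nrg4, Atm, Nxpe4 and Bco2. The sham and irradiated contrasts compare different arrays, but they share the slides and the same estimate of each gene's spread. Of the 205 genes called after irradiation, 200 (97.6%) had the same sign in sham, beside 73.5% of all genes. In sham 152 had an unadjusted p under 0.05 (limma), beside 7.69% of all genes. Genes called after irradiation tend to have a small estimated spread, which by itself raises the 152, so that count is a description.

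In size, the genes near Neil1 and the genes elsewhere differed between the treatments. Among the 21 near Neil1 the median absolute difference was 0.78 after irradiation and 0.66 in sham. Among the 184 elsewhere it was 0.66 and 0.36. The genes were chosen by the irradiated contrast, which by itself raises the first value of each pair. The difference of the genotype contrasts between irradiated and sham mice was tested for every gene, and 0 of 17436 were called (limma, smallest adjusted p = 0.99992). At an unadjusted p under 0.05 there were 222 genes (1.27%), 46 of them among the 205, with 3 near Neil1 and 43 elsewhere. A genotype effect particular to irradiated mice was therefore not shown for any gene.

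**Figure D4:**
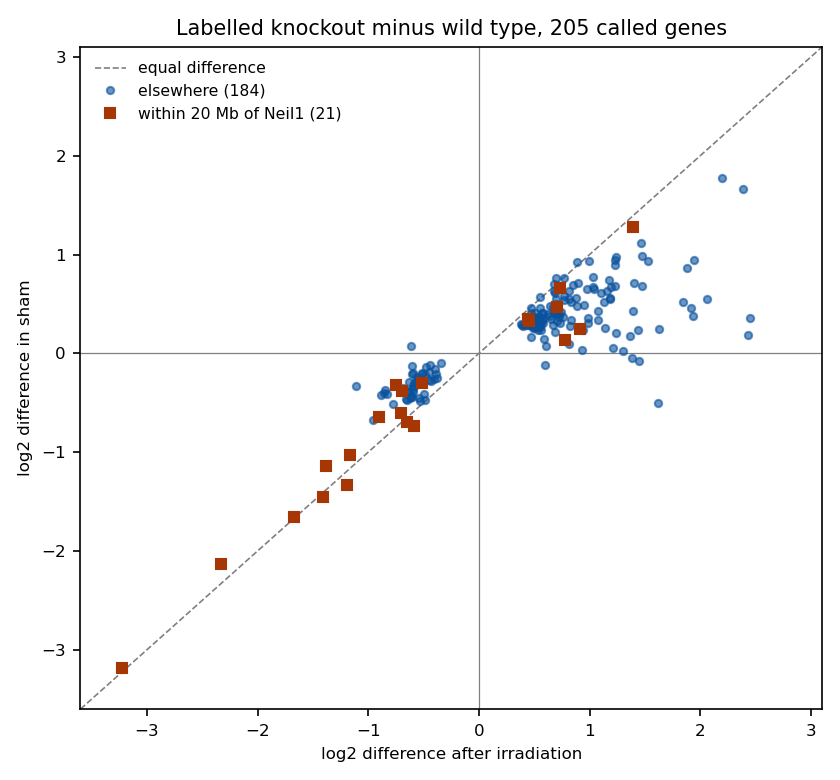
Genotype difference (labelled knockout minus wild type, log2) of the 205 genes called after irradiation, with the irradiated contrast on the x axis and the sham contrast on the y axis; squares are the 21 genes within 20 Mb of Neil1, circles the 184 elsewhere, and the dashed line marks equal differences. Cd276 and Bco2, near Neil1, lie close to the line, and most circles lie between the line and 0 in sham.

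Among the genes called after irradiation, those with the smallest unadjusted p for that difference came mostly from the dim end. The irradiated contrast chose these genes and is also part of the difference. That by itself lowers the p-values below, so they are a description. Pik3ap1, an adaptor of phosphoinositide signalling in B cells and macrophages, differed by 1.24 ± 0.18 after irradiation (limma, adjusted p = 0.00766) and by 0.21 ± 0.18 in sham. Its irradiated levels were -5.11, -5.37, -4.83 and -4.77 in labelled knockout and -6.17, -6.45, -6.31 and -6.11 in wild type, which did not overlap, while its sham levels did. The difference of the contrasts was 1.04 ± 0.26 (limma, unadjusted p = 0.00113). For Olfr1383, another odorant receptor, it was 1.43 ± 0.35 (limma, unadjusted p = 0.00104) and for Smgc 0.72 ± 0.16 (limma, unadjusted p = 0.000611). Olfr1383 was well above background on 2 of the wild-type irradiated arrays. Tg, thyroglobulin, was above background on 3 labelled knockout irradiated arrays and on no wild-type one, a gap that the probe filter favours. It was at least 1.74-fold higher after irradiation (limma, adjusted p = 0.0437), so the size of its difference of contrasts is not measured. In the lower direction, the chemokine Ccl24 gave -0.68 ± 0.19 (limma, unadjusted p = 0.00253) and Csgalnact1, an enzyme of chondroitin sulphate synthesis, -0.48 ± 0.18 (limma, unadjusted p = 0.0163). The genotype difference of Ccl24 after irradiation turned to 0.10 with normexp background correction. Aspn, also named for this difference, was not measured above background in labelled knockout irradiated cortex, so its size is not given.

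The DNA glycosylases are the enzymes that share the first step of base excision repair with NEIL1. Of 10 tested genes 1 was called, Neil1 itself, beside 1.18% of all genes. At an unadjusted p under 0.05 there were 3 (limma, 30%, beside 16.6% of all genes), 2 higher and 1 lower. Ung, which removes uracil, was at 0.76 ± 0.23 (limma, adjusted p = 0.119), with 0.64 in sham. Neil2, a paralogue of Neil1, was at 0.29 ± 0.30. Ogg1, which removes oxidised guanine, was at 0.07 ± 0.15 and Nthl1, which overlaps NEIL1 in substrate, at 0.13 ± 0.11. Mpg, the alkyladenine glycosylase, was at -0.34 ± 0.12 (limma, adjusted p = 0.163). The list's median was 0.10 with 75th percentile scaling and -0.03 with quantile normalization.

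None of the 16 genes of the later steps of base excision repair was called (limma). At an unadjusted p under 0.05 there were 2 (12.5%, beside 16.6% of all genes). Xrcc1, the scaffold of the ligation step, had the smallest p, at -0.34 ± 0.10 (limma, adjusted p = 0.105). Poll, a gap-filling polymerase, was at -0.26 ± 0.09 (limma, adjusted p = 0.146). Apex1, the abasic site nuclease, Polb, the main gap-filling polymerase, and Lig3, the ligase bound to XRCC1, were at -0.07 ± 0.16, -0.02 ± 0.08 and -0.00 ± 0.10. Parp1, the strand-break sensor, was at 0.03 ± 0.18.

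Of the 19 genes of double-strand break repair and signalling, Atm alone was called, beside 1.18% of all genes. At an unadjusted p under 0.05 there were 5 (limma, 26.3%, beside 16.6% of all genes), 1 higher and 4 lower. H2ax, the histone that ATM phosphorylates, was at -0.62 ± 0.19 (limma, adjusted p = 0.114), Chek2, a kinase downstream of ATM, at 0.52 ± 0.17 (limma, adjusted p = 0.141) and Atr, the kinase of replication stress, at -0.25 ± 0.16. Of the 19 genes of nucleotide excision, lesion bypass and direct repair 0 were called (limma). At an unadjusted p under 0.05 there were 2 (10.5%, beside 16.6% of all genes). Ercc2, a helicase of nucleotide excision, was at 0.94 ± 0.40 and Xpa, a damage-binding protein, at -0.30 ± 0.10.

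Targets of p53, which radiation is known to induce, gave 0 calls among 32 genes (limma), 2 of them at an unadjusted p under 0.05 (6.25%, beside 16.6% of all genes), with 16 above and 16 below 0 and a median of -0.01. Cdkn1a, the p21 inhibitor of the cell cycle, read 0.78, 0.39, 0.54 and 0.57 in labelled knockout cortex and 0.77, 0.71, 0.36 and -0.01 in wild-type cortex, which overlapped (0.11 ± 0.19). Mdm2, the ligase that degrades p53, was at 0.12 ± 0.11, and Gdf15, a stress-induced secreted factor, at -0.26 ± 0.17. The smallest p in the list belonged to Pidd1, a p53-induced death domain protein, at 0.31 ± 0.12 (limma, adjusted p = 0.21), and Plk3, a polo-like kinase, at 0.35 ± 0.16. With these standard errors a small genotype difference in single p53 targets would not have been detectable.

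Inflammatory and interferon genes gave no calls either: 0 of 23 NF-kB and inflammatory genes, 0 of 32 interferon-stimulated genes, 0 of 16 antigen presentation genes and 0 of 16 complement genes (limma). At an unadjusted p under 0.05 there were 5, 2, 1 and 0 of these (21.7%, 6.25%, 6.25% and 0%, beside 16.6% of all genes). Relb and Nfkb1, NF-kB subunits, were at -0.50 ± 0.16 and 0.51 ± 0.16. Dhx58 and Parp14, interferon-stimulated genes, were at 0.36 ± 0.14 and -0.40 ± 0.18. Ciita, the regulator of MHC class II genes, was at -1.62 ± 0.38 (limma, adjusted p = 0.0537) and at -2.35 with quantile normalization (limma, adjusted p = 0.0287), but it was above background on no labelled knockout and 3 wild-type arrays, so its size is not measured.

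Cell division genes gave 0 calls of 27, DNA replication genes 0 of 22, and neural progenitor and neuroblast genes 0 of 14 (limma). At an unadjusted p under 0.05 there were 4, 4 and 2 (14.8%, 18.2% and 14.3%, beside 16.6% of all genes). Cenpf, a kinetochore protein, and Pbk, a mitotic kinase, had the smallest p among the cell division genes (limma, adjusted p = 0.114 and 0.208), but both were not well above background on any labelled knockout array. Prom1 and Sox4, progenitor genes, were at 0.67 ± 0.18 (limma, adjusted p = 0.0884) and -0.36 ± 0.15.

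Cell type markers were compared because a difference in dissection or cell content would appear in them; in bulk cortex, fewer cells of a type and less RNA per cell cannot be told apart. The excitatory neuron list, which checks the tissue label, had 17 of 18 genes tested and a mean level of 2.08 to 2.24 in labelled knockout and 2.09 to 2.22 in wild-type irradiated arrays, high in both. None of its genes was called (limma) and 3 had an unadjusted p under 0.05 (17.6%, beside 16.6% of all genes). Cux2 of the upper layers and the kinase gene Camk2a were at 0.50 ± 0.20 and 0.53 ± 0.20. Striatal neuron genes varied far more from array to array within each genotype, from -0.42 to 1.86 in labelled knockout and from -0.86 to 2.77 in wild type. The ranges overlapped and 0 of 16 were called (limma), 0 also at an unadjusted p under 0.05.

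Mature oligodendrocyte genes gave 1 call of 18, beside 1.18% of all genes, and 1 at an unadjusted p under 0.05 (limma, 5.56%, beside 16.6% of all genes). Myrf, the transcription factor that drives myelination, read -4.36, -5.63, -4.67 and -5.08 in labelled knockout against -6.05, -6.17, -6.57 and -6.51 in wild type. It rose by 1.39 ± 0.28 (2.62-fold, limma, adjusted p = 0.0342), and with quantile normalization it was at 1.07 (limma, adjusted p = 0.128). The myelin genes did not pass, with Mbp at 0.69 ± 0.45 and Mog at 0.13 ± 0.39. The list's mean level overlapped between genotypes, at 1.25 to 2.06 and 0.87 to 1.83. After irradiation 16 of 18 genes were above 0, with a median of 0.16, while in sham 16 of 18 were below 0, with a median of -0.31. Without labelled knockout replicates 1, 3 or 4 or wild-type replicates 2, 3 or 4 the call of Myrf was lost.

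Astrocyte genes gave 1 call of 16, beside 1.18% of all genes, and 4 at an unadjusted p under 0.05 (limma, 25%, beside 16.6% of all genes). Slc1a2, the main glutamate transporter of astrocytes, read 3.20, 3.49, 2.96 and 3.23 in labelled knockout and 2.72, 2.82, 2.53 and 2.50 in wild type, an increase of 0.58 ± 0.13 (limma, adjusted p = 0.0437). With quantile normalization it was at 0.61 (limma, adjusted p = 0.0637), and no fit that left out an array other than wild-type replicate 1 kept the call. Reactive astrocyte genes gave 0 calls of 16 (limma) and 4 at an unadjusted p under 0.05 (25%, beside 16.6% of all genes). Below 0 were 13, and the median was -0.29. S100a10, an annexin partner, was at -0.73 ± 0.17 (limma, adjusted p = 0.0569) and Gfap at -0.01 ± 0.26.

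Microglia genes gave 0 calls of 22 (limma) and 5 at an unadjusted p under 0.05 (22.7%, beside 16.6% of all genes). P2ry12, the purinergic receptor of resting microglia, was at -0.42 ± 0.10 (limma, adjusted p = 0.0603) and Tmem119 at -0.05 ± 0.19. Oligodendrocyte precursor genes gave 0 of 16 (3 at an unadjusted p under 0.05, 18.8%), with Gpr17 at -0.45 ± 0.14. Vascular and border tissues gave 0 calls of 15 endothelial, 11 pericyte, 12 meningeal, 11 choroid plexus and 9 ependymal genes (limma), with 1, 1, 0, 0 and 1 at an unadjusted p under 0.05. Meningeal and ependymal genes were mostly below 0, 10 of 12 and 9 of 9, with medians of -0.47 and -0.33, and they were below 0 in sham too, at -0.22 and -0.56. Red cell and platelet genes gave 0 calls of 9 (limma) and 3 at an unadjusted p under 0.05, with a median of 0.58 after irradiation and -0.41 in sham, and a mean level of -2.56 to -1.45 in labelled knockout and -3.15 to -1.98 in wild-type irradiated arrays. Where these lists lean with genotype, their part in the called genes was not tested.

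Metabolic lists gave a few calls of small size, beside 1.18% of all genes called. Of 20 cholesterol genes, 4 had an unadjusted p under 0.05 (limma, 20%, beside 16.6% of all genes). In cholesterol synthesis and its control 2 of 20 genes were called in opposite directions: Insig1, which holds the sterol sensor SCAP in the endoplasmic reticulum, rose by 0.63 ± 0.12 (limma, adjusted p = 0.0285), and Lss, lanosterol synthase, fell by 0.53 ± 0.12 (limma, adjusted p = 0.0453). Scap itself, named after its values were seen, fell by 0.58 ± 0.10 (limma, adjusted p = 0.0198). With quantile normalization Scap was at -0.56 (limma, adjusted p = 0.0111), while Insig1 and Lss were at 0.54 and -0.54 with adjusted p of 0.0638 and 0.0582 (limma). The 3 calls were each lost without labelled knockout replicates 2, 3 or 4 or wild-type replicates 2, 3 or 4.

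In the respiratory chain 2 of 37 genes were called, beside 1.18% of all genes. At an unadjusted p under 0.05 there were 8 (limma, 21.6%, beside 16.6% of all genes). Cox6a1, a cytochrome oxidase subunit, rose by 0.47 ± 0.10 (limma, adjusted p = 0.0428) and Atp5b, the catalytic subunit of ATP synthase, by 0.43 ± 0.09 (limma, adjusted p = 0.038). Both are among the brightest genes, and with quantile normalization they were at 0.00 and 0.07. In the cytosolic ribosome 1 of 49 genes was called, beside 1.18% of all genes. It was Rpl4, which rose by 0.44 ± 0.09 (limma, adjusted p = 0.0285) and also lies within 20 Mb of Neil1. Of the 49, 11 had an unadjusted p under 0.05 (limma, 22.4%, beside 16.6% of all genes), 5 higher and 6 lower. Heat shock, oxidative stress, circadian, glucocorticoid-induced and immediate early lists gave 0 calls of 20, 21, 18, 21 and 21 genes (limma). At an unadjusted p under 0.05 they gave 4, 3, 1, 2 and 1 (20%, 14.3%, 5.56%, 9.52% and 4.76%, beside 16.6% of all genes). Their smallest p values belonged to Manf, a secreted endoplasmic reticulum stress factor, at -0.56 ± 0.13 (limma, adjusted p = 0.0522), and Mt1, a metallothionein, at 0.35 ± 0.09 (limma, adjusted p = 0.0661).

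**Figure D5:**
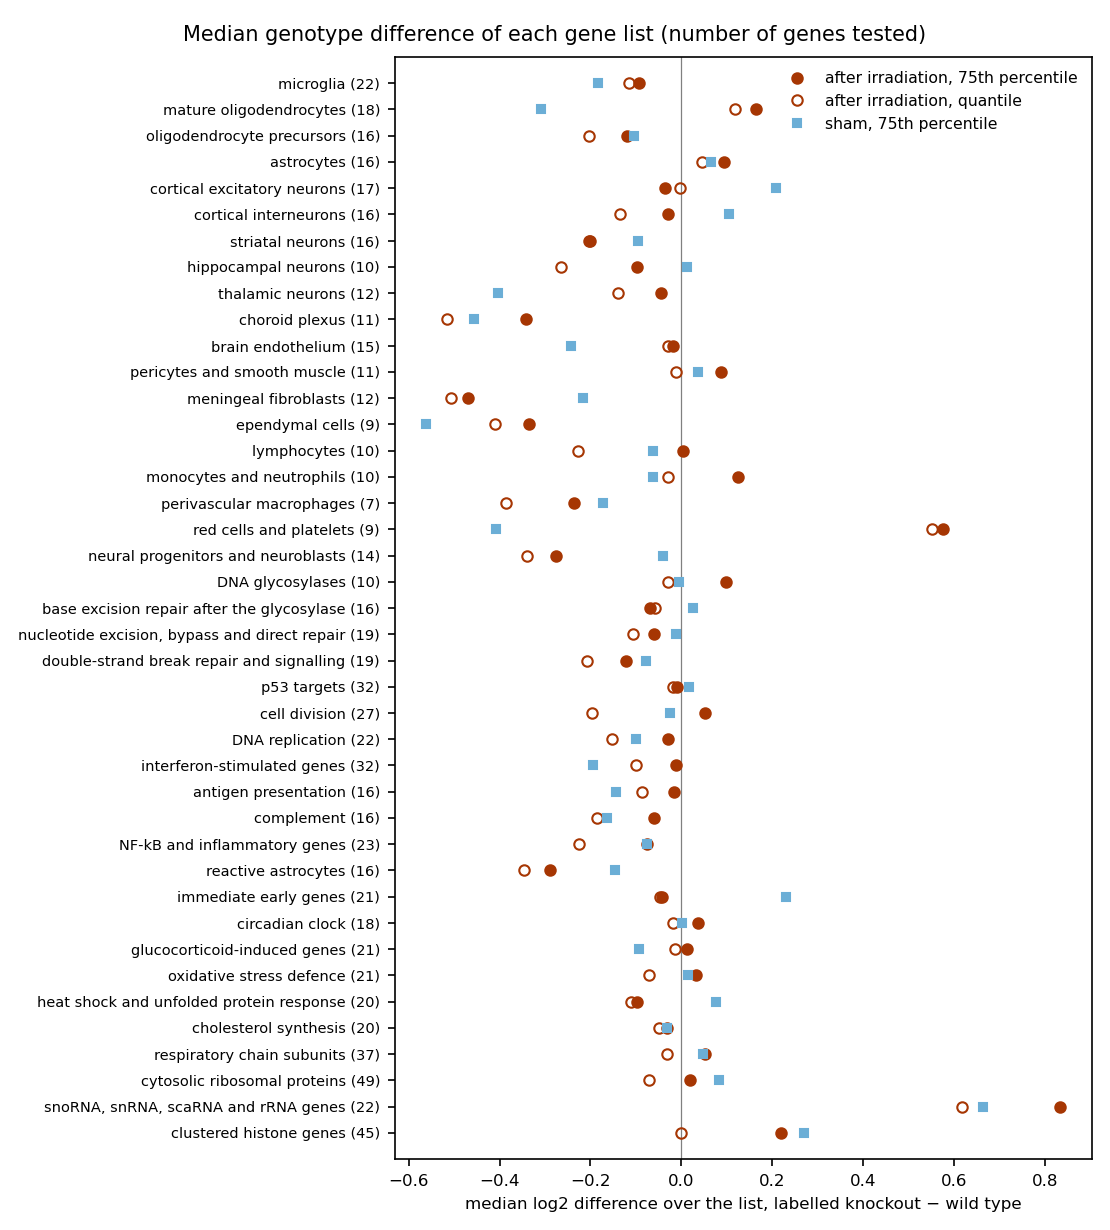
Median genotype difference (labelled knockout minus wild type, log2) of each of the gene lists and of the RNA classes put together after values were seen, with the number of genes tested; filled circles are the irradiated mice with 75th percentile scaling, open circles the same with quantile normalization, and squares the sham mice. The p53 targets lie at -0.01, and the small nuclear, nucleolar and ribosomal RNA genes lie farthest above, at 0.83.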

How the data were processed

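RNA of 16 cortex samples was labelled and hybridised to 1-colour Agilent arrays, 1 sample per array, 4 per group. The deposited array files hold Agilent Feature Extraction 12.0.3.1 output, per the file headers: processed signal intensity per spot, background corrected by that software, and flags for outlier spots and for signal well above background. A deposited table of the authors' own scores was used as an alternative; its columns share 1 distribution centred near 0 with an SD of 1.0, and neither label nor header states their unit. No spot was saturated (0 on each array).

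Spots of a probe were averaged without outlier spots. Probes well above background on at least 4 of 16 arrays were kept, 39589 of 56605 probes. Genes were named through RefSeq accessions, which named 32994 probes, and each of 17436 genes was represented by its brightest kept probe. Log2 intensity of the deposited signals minus the array's 75th percentile was fitted with limma 3.58.1 in R 4.3.3 as 4 group means over 16 arrays (12 residual degrees of freedom), with Benjamini-Hochberg adjustment over all genes at 0.05. The script was tested on simulated data. A difference is labelled knockout minus wild type, with its standard error; the number of arrays limits its precision. Where no array of a group measured a gene well above background, its fold is a bound, from the lowest signal well above background on each array. Distance from Neil1 used 20 Mb and RefSeq gene order only.

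Genes were named by a rule, starting with Neil1. It took the 12 largest called increases and 12 largest called decreases whose arrays did not overlap and whose brighter group was above background throughout. It added up to 6 called genes within 20 Mb of Neil1 and up to 3 called members (else the 2 of smallest p) of each of 39 lists. Last came up to 4 genes in each direction by the difference of the contrasts, taken only from genes called after irradiation. Some genes that the rule names are not reported here. The members, lists and rule were chosen with earlier results of these data known. Replicate numbers do not pair the samples: same-numbered arrays of the irradiated groups deviated with correlations of 0.16, -0.24, 0.01 and 0.05. The normexp alternative used the median signal, since no mean signal column was used here.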

Additional observations from a re-analysis of the deposited data

Results flagged for a closer look

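Single arrays stood apart within a group of 4 in 11 of 210 groups examined, about the share that chance gives (1 in 20), by the size of the gap to the next array relative to the range of the group. Among wild-type irradiated arrays, the single array read -7.49 for Rhbdl2, 0.35 for Cux2, -7.47 for Plekhg1, -4.79 for F5, 1.54 for Xpa, -1.85 for Ercc2, -2.89 for Npas2 and -2.44 for Hyou1, all levels in log2 relative to the array's 75th percentile. Among labelled knockout irradiated arrays it read -8.00 for Cenpf, -3.11 for Tyms and -2.13 for Serping1. Of these genes, Rhbdl2 alone was called between the genotypes.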

How the results depend on the processing

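The count of 205 genes called after irradiation moved with most choices. It was 89 with quantile normalization, 443 with z-scores within arrays, 3378 with normexp background correction, 1798 with no filter on dim probes, 494 with the mean of a gene's probes and 1839 when each of 39589 probes was tested. It was 18 in a fit of the 8 irradiated arrays alone, 446 with array weights, 77 with the authors' deposited scores and 131 with a 1.5-fold minimum. After seeing the data, 2 alternatives were added: without the 2 dimmest arrays 4 genes were called, and with brightness as a covariate 0 (limma, 3666 at an unadjusted p under 0.05). Leaving out 1 array gave 17 to 469. The cause of these shifts was not tested. Cyclic loess gave 202, with 88 higher and 114 lower, so the split of directions moved there too, as it did with normexp (2822 higher, 556 lower), z-scores (208 and 235), array weights (252 and 194) and the deposited scores (40 and 37). Cyclic loess shared 141 of the 205 calls.

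The sham count of 9 became 18 when every probe was tested and 192 with array weights, and ran from 6 to 13 otherwise; leaving out 1 irradiated array gave 8 to 13. The count for the difference of the contrasts was 0 in all alternatives run (limma), beside 222 at an unadjusted p under 0.05 with the settings of the report. The Neil1 difference ranged from 1.20 to 1.51 without 1 array and kept its call. It lost the call in 3 alternatives: at 1.39 with the 8 irradiated arrays alone (limma, adjusted p = 0.067), at 1.38 without the 2 dimmest arrays and at 1.75 with brightness as a covariate. Among named genes, 6 changed sign, all with normexp, to 0.38 for Aspn, 0.51 for Gzma, 0.58 for Mmp8, 0.54 for Cenpf, 0.43 for C5ar1 and 0.10 for Ccl24; all 6 are dim. Over the named genes other than Neil1, 2893 values kept their side of the threshold, 496 lost a call and 93 gained one. With the replicate number as a block 289 genes were called, 183 of them among the 205, but the replicate numbers do not pair the samples.

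Every value carries the same limits: genotype, slide and scan coincide, and 4 arrays per group leave a median standard error of 0.17 on a log2 difference.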
